A study of Mus with 21 samples.

Results

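The 55 genes described here encode proteins that fill, dock, fuse and retrieve synaptic vesicles. They were chosen by gene symbol with earlier results of these data known, so no test of the 55 as a set was run. All 55 were present among the 55335 genes of the count table. RNA came from whole brains of female mouse embryos at E17.5, with 1 library for each embryo. The 4 groups were 5 WT embryos (Wapl +/+ and Nipbl +/+), 7 WaplΔ/+ embryos with both Nipbl copies intact, 3 Nipbl+/- embryos with both Wapl copies intact, and 6 double heterozygotes carrying 1 mutant copy of each gene. The 2 proteins act in opposite directions on cohesin, the ring complex that shapes chromatin loops: NIPBL is its loader and WAPL its release factor. The WaplΔ allele lacks the promoter and first exons and was made in an earlier generation with E2a-Cre, and the Nipbl mutant allele arose in the germ cells of sires carrying the Stra8-icre transgene. Both alleles are therefore constitutive, so every cell type of the brain carried them. The sample labels name no litter, and P values measure the spread among these embryos.

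A nerve terminal stores transmitter in vesicles that carry transporters and membrane glycoproteins and are held in clusters by synapsins. Vesicles dock at the active zone through RAB3, RIM and UNC13 proteins, and fusion is driven by the SNARE complex, clamped by complexins and triggered when synaptotagmins bind calcium. Dynamin, amphiphysin and synaptojanin then retrieve the membrane. In the late embryonic brain most of these genes are already transcribed while synapses are only beginning to form.

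The libraries held between 25682566 and 35818767 counts each, with a median of 31830396. Levels below are normalized counts, which are read counts per gene scaled by edgeR's TMM factors over the 21 libraries. They do not account for transcript length, so levels were not compared between genes. In the check of the labels, *Nipbl* stood at 54.3% of the WT mean in Nipbl+/- brains and 54.8% in double heterozygotes, and *Wapl* stood at 46.7% in WaplΔ/+ brains and 49.3% in double heterozygotes. Neuronal RNA was present in every library, and the 15 pan-neuronal markers summed to between 384901 and 410711 normalized counts. The libraries also fell into 2 sets by the mitochondrial gene *mt-Nd3* (above or below 20 counts), and all 3 Nipbl+/- libraries belonged to the low set along with WT replicates 1 to 3, WaplΔ/+ replicates 1 and 2 and double-heterozygote replicates 1 to 4. Counts and calls within the sets are given for the comparisons where they differ.

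All 55 genes passed the low-count filter, which required 10 normalized counts or more over the 21 libraries together, and so did 30552 genes in all. Mean WT levels ran from 14.9 for *Cplx3* to 11688 for *Vamp2*, with a median of 3840.1, and 47 of the 55 averaged 1000 or more. A gene was called differentially expressed when edgeR's quasi-likelihood test gave an adjusted *P* below 0.10 over all tested genes, and changes are given as log2 fold changes throughout.

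In Nipbl+/- brains 27 of the 55 genes fell and none rose against WT, at the same threshold at which 6.96% of all tested genes fell and 4.25% rose. Among the 7152 genes averaging 1000 normalized counts or more, called abundant below, 14.0% fell. The reductions were small: the median gene stood at 90.5% of its WT mean, the median log2 fold change was -0.15 against -0.01 over all tested genes, and 26 genes stood below 90% of WT. In bulk tissue fewer cells of a type and less RNA per cell cannot be told apart. Of the 55 fold changes 52 lay below 0 (51.7% of all tested genes did). Every Nipbl+/- library lay below every WT library for 16 genes, a pattern found in 6.90% of all tested genes and 11.7% of the abundant ones. The count of 27 depended on single embryos. It was 17 without Nipbl+/- replicate 1, 17 without replicate 3, and 42 without replicate 2, of which 41 were lower and 1, *Unc13b*, was higher. Within the low *mt-Nd3* set 16 genes were called, all lower, and with the set as a term in the model 18 were called. For these and later alternative fits the share of all tested genes called in the same fit is not given here. Whether such counts moved with those of all genes cannot be told from them.

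In WaplΔ/+ brains only *Sv2c*, *Syn3* and *Dnm3* were called against WT, all lower, where 1.45% of all tested genes fell (3.03% of the abundant genes). The median log2 fold change of the 55 genes was -0.05, 42 of them lay below 0 (50.9% of all tested genes), and 17 had an unadjusted *P* below 0.05 (15.6%). *Rims1* and *Synj1* were the 2 genes with no overlap between the groups (0.471% of all tested genes). The count was 0 without WT replicate 1, 2 or 5, 1 without WT replicate 4, and 8, 7, 9 and 5 without WaplΔ/+ replicates 2, 3, 6 and 7. In the low *mt-Nd3* set none of these 3 genes was called, and *Sv2b*, *Synpr* and *Slc17a7* were called in their place, all lower. In the high set 1 gene, *Sv2c*, was called.

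In double heterozygotes 12 genes fell and none rose against WT, where 2.46% of all tested genes fell (4.59% of the abundant genes). These were *Vamp1*, *Napb*, *Syt1*, *Syt4*, *Syt6*, *Sv2b*, *Sv2c*, *Syn2*, *Cplx1*, *Cplx2*, *Doc2b* and *Amph*. The median log2 fold change was -0.12, the median gene stood at 91.7% of WT, 52 genes lay below 0 (49.8% of all tested genes), and 9 genes showed no overlap with WT (2.29% of all tested genes). The count rose to 30 without double-heterozygote replicate 5, of which 29 were lower and *Unc13b* was higher, and to 26 without replicate 3. It dropped to 5 without WT replicate 1 or 4, to 6 without WT replicate 3 or double-heterozygote replicate 4, and to 7 without double-heterozygote replicate 6. In the low *mt-Nd3* set 6 genes were called and in the high set 0. Libraries of a group were also compared in pairs by chi-square per degree of freedom over all but low-count genes. Pairs with double-heterozygote replicate 5 gave 16.48 to 21.96, and the other pairs of double heterozygotes 4.331 to 17.17. The share of all tested genes called without replicate 5 is not given here, so the rise to 30 cannot be set against it. The 3 comparisons share the WT libraries, so their values are given side by side and were not set against each other.

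**Figure D1:**
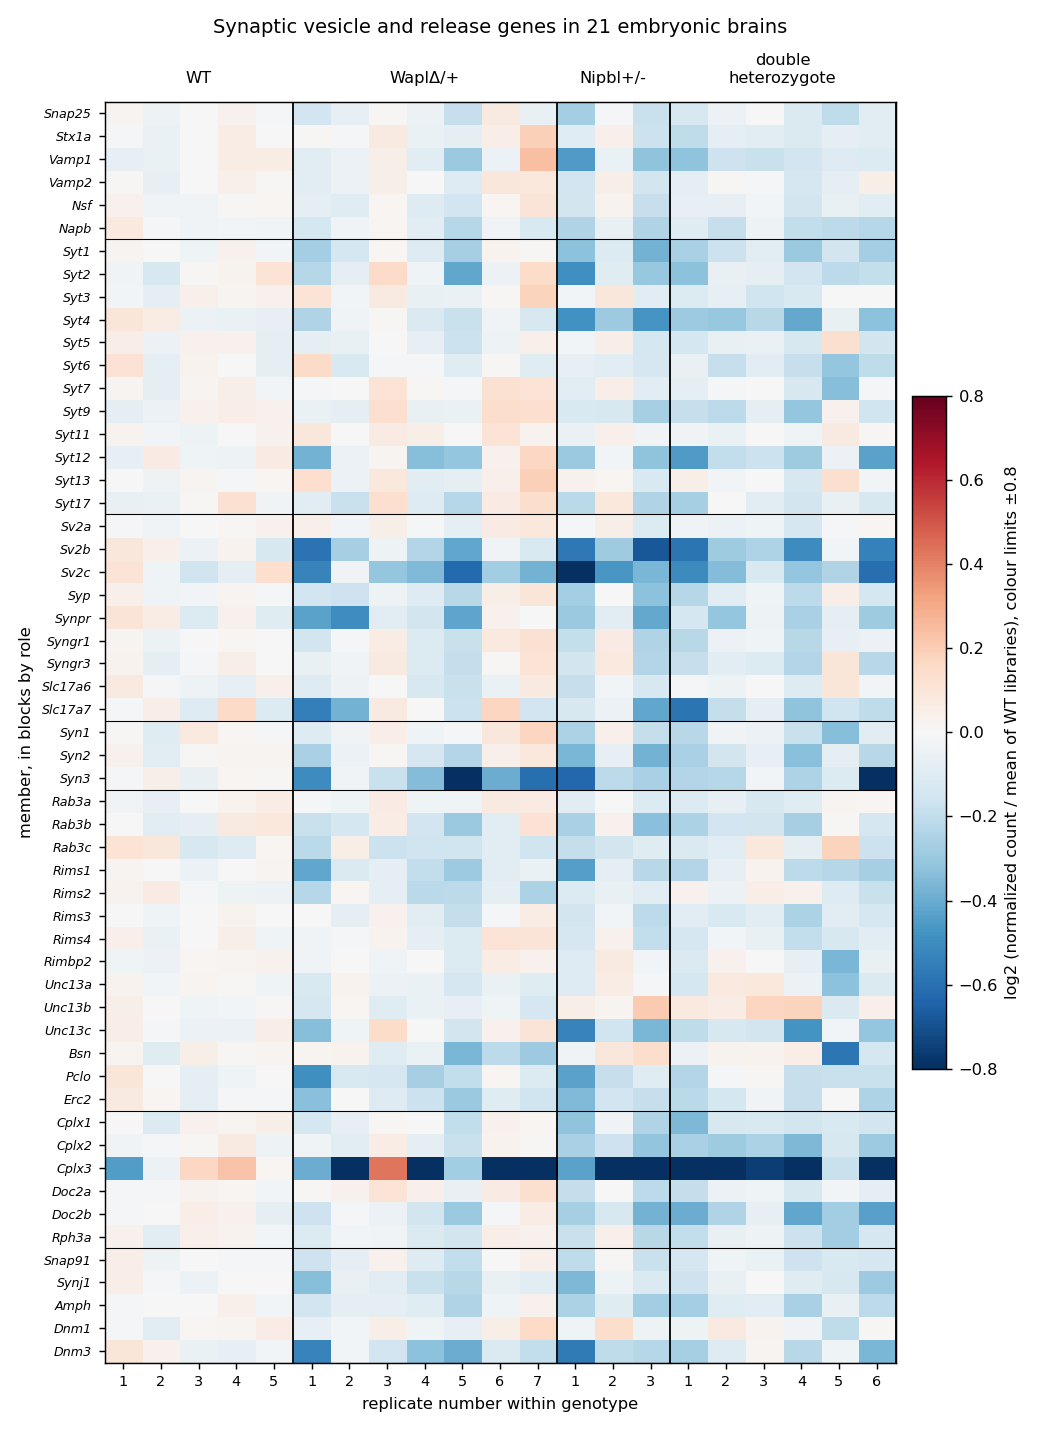
Normalized counts of the 55 genes (rows, in blocks by role) in the 21 libraries (columns, grouped by genotype) as log2 ratios to the WT mean, blue for lower and red for higher. The columns of Nipbl+/- replicates 1 and 3 are blue in nearly every row, and that of Nipbl+/- replicate 2 is close to white apart from *Syt4*, *Sv2b*, *Sv2c* and a few others.

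The SNARE proteins form the fusion machine itself. Of 6 genes in this group, *Snap25*, *Vamp1* and *Napb* fell in Nipbl+/- brains. *Vamp1*, a vesicle SNARE, had 946, 951, 986, 1032 and 1029 normalized counts in the 5 WT libraries and 722, 953 and 793 in the 3 Nipbl+/- libraries. Nipbl+/- replicates 1 and 3 lay below all WT libraries and replicate 2 inside their range, and the log2 fold change was -0.27 (SE 0.0700, edgeR adjusted *P* = 0.0227). The call was lost without Nipbl+/- replicate 1 or 3 (edgeR adjusted *P* of up to 0.164). The lowest, median and highest *Vamp1* values were 805, 955 and 1168 in WaplΔ/+ brains and 791, 886 and 921 in double heterozygotes. The double heterozygotes all lay below WT (log2 fold change -0.16, edgeR adjusted *P* = 0.0925), and the WaplΔ/+ libraries fell on both sides of it. The call in double heterozygotes was lost without WT replicate 1, 2, 3, 4 or 5 or double-heterozygote replicate 1, 2 or 4 (edgeR adjusted *P* of up to 0.253). *Napb*, whose product helps NSF take used SNARE complexes apart, measured 4796, 4513, 4455, 4462 and 4444 in WT and 3831, 4356 and 3834 in Nipbl+/- libraries, with no overlap and a log2 fold change of -0.18 (SE 0.0451, edgeR adjusted *P* = 0.0165). That call was lost without Nipbl+/- replicate 3 (edgeR adjusted *P* = 0.108). In double heterozygotes *Napb* changed by -0.15 (SE 0.0401, edgeR adjusted *P* = 0.0689), and the call was lost without WT replicate 1, 2, 3 or 4 or double-heterozygote replicate 2, 4 or 6 (edgeR adjusted *P* of up to 0.191). *Vamp2*, the main vesicle SNARE of the forebrain, was not called. Its Nipbl+/- values of 10504, 12096 and 10574 straddled the WT values of 11752, 11166, 11724, 12047 and 11752, with a log2 fold change of -0.09 (edgeR adjusted *P* = 0.319). *Snap25*, the SNARE of the plasma membrane, changed by -0.15 (edgeR adjusted *P* = 0.0562). It was not called without WT replicate 1 or 4 or Nipbl+/- replicate 1 or 3 (edgeR adjusted *P* of up to 0.322). *Stx1a* and *Nsf* completed the group, at -0.08 and -0.10 on the log2 scale, and were not called.

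Synaptotagmins are calcium sensors and related membrane proteins. All 12 had fold changes below 0 in Nipbl+/- brains, and *Syt1*, *Syt2*, *Syt4* and *Syt9* were called. *Syt4*, a neuronal synaptotagmin that lacks normal calcium binding in one of its domains, had 10668, 10373, 9657, 9584 and 9503 normalized counts in WT and 7115, 8140.1 and 7179 in Nipbl+/- libraries. Every Nipbl+/- library, replicate 2 included, lay below every WT library, and the log2 fold change was -0.42 (SE 0.050, edgeR adjusted *P* = 8.84e-05). WaplΔ/+ libraries had a lowest, median and highest value of 8434, 9205 and 10007, all above the Nipbl+/- libraries, and the direct comparison of Nipbl+/- with WaplΔ/+ brains gave -0.31 (SE 0.0564, edgeR adjusted *P* = 0.0138). That call was lost without Nipbl+/- replicate 1 or 3 (edgeR adjusted *P* = 0.118 and 0.177). All Nipbl+/- libraries and only 2 of 7 WaplΔ/+ libraries belong to the low *mt-Nd3* set. With the set as a term the *Syt4* difference was -0.28 (edgeR adjusted *P* = 0.303), and within the low set it was -0.28 (edgeR adjusted *P* = 0.815), so the call was lost in both. In double heterozygotes *Syt4* ranged over 7484, 8104 and 9563 (lowest, median, highest), and replicate 5 reached into the WT range. The log2 fold change was -0.25 (SE 0.0550, edgeR adjusted *P* = 0.0206).

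*Syt1*, the fast calcium sensor of forebrain synapses, fell to 83.1% of WT in Nipbl+/- brains, from 9857 ± 197 (SD, n = 5) to 8193 ± 843 (SD, n = 3), and to 86.8% in double heterozygotes. The log2 fold changes were -0.27 (SE 0.050, edgeR adjusted *P* = 0.00231) and -0.19 (SE 0.0424, edgeR adjusted *P* = 0.0216), with no overlap with WT in either case. *Syt2*, the fast sensor of hindbrain and inhibitory terminals, measured 763, 710.05, 781, 791 and 839 in WT and 552, 725 and 628 in Nipbl+/- libraries. Replicate 2 lay within the WT range and the log2 fold change was -0.30 (SE 0.0733, edgeR adjusted *P* = 0.0176). The call was lost without Nipbl+/- replicate 1 (edgeR adjusted *P* = 0.128). *Syt9* fell by 0.17 (log2) with no overlap (edgeR adjusted *P* = 0.0433), a call that was lost without WT replicate 4 or Nipbl+/- replicate 3 (edgeR adjusted *P* of up to 0.275). By contrast *Syt11*, a synaptotagmin without calcium binding, measured 10223, 9878, 9761, 10047 and 10259 in WT and 9654, 10320.2 and 9841 in Nipbl+/- libraries, which overlapped (log2 fold change -0.02, edgeR adjusted *P* = 0.837). *Syt3*, *Syt5*, *Syt7* and *Syt13* also had log2 fold changes between -0.05 and -0.01 and were not called. *Syt6* was called in double heterozygotes at -0.16 (SE 0.0463, edgeR adjusted *P* = 0.0909), and the call was lost without WT replicate 1, 2, 3 or 4 or double-heterozygote replicate 2, 4 or 6 (edgeR adjusted *P* of up to 0.247). *Syt12* and *Syt17* were not called in any group.

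The group of vesicle membrane proteins and transporters includes *Sv2c* and *Sv2b*, which in Nipbl+/- brains had the lowest log2 fold changes of the 55 genes after the barely expressed *Cplx3*. *Sv2a*, *Sv2b* and *Sv2c* encode the SV2 glycoproteins that prime vesicles for release, and 2 of the 3 paralogues were called. *Sv2c* (chromosome 13, 95959443 to 96132577 of GRCm38.p6 in the RefSeq annotation) had 2370.4, 2145, 1963, 2089.7 and 2403 normalized counts in WT and 1178, 1589 and 1699.6 in Nipbl+/- libraries. No Nipbl+/- library reached the WT range, and the mean was 67.9% of WT, with a log2 fold change of -0.57 (SE 0.0879, edgeR adjusted *P* = 0.000677). The WaplΔ/+ libraries ranged over 1423, 1719 and 2154 and the double heterozygotes over 1445, 1748 and 2016 (lowest, median, highest), and in each group 1 library lay in the WT range. Their log2 fold changes were -0.34 (SE 0.0721, edgeR adjusted *P* = 0.0381) and -0.34 (SE 0.0714, edgeR adjusted *P* = 0.0182). The WaplΔ/+ call was lost without WT replicate 1, 2 or 5 (edgeR adjusted *P* of up to 0.136).

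*Sv2b* (chromosome 7, 75114894 to 75309262) measured 1625, 1569.9, 1475, 1550.3 and 1397 in WT and 1026, 1252 and 954 in Nipbl+/- libraries. The groups did not overlap and the log2 fold change was -0.50 (SE 0.0703, edgeR adjusted *P* = 0.000289). Double heterozygotes ranged over 1015, 1161 and 1500.4 (lowest, median, highest), with replicate 5 in the WT range, and gave -0.34 (SE 0.0806, edgeR adjusted *P* = 0.0361). Without WT replicate 1 or 4 the edgeR adjusted *P* of the double heterozygotes was 0.113 or 0.101. In WaplΔ/+ brains, where values ran over 1012, 1294 and 1496, *Sv2b* was not called (-0.22, edgeR adjusted *P* = 0.139). *Sv2a*, the SV2 gene with the broadest expression, stood at 98.4%, 101% and 97.3% of WT in Nipbl+/-, WaplΔ/+ and double-heterozygote brains and was called in none of them. The difference between the paralogues was not tested.

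*Syp*, which encodes the abundant vesicle protein synaptophysin, had 11740.0, 11152, 11220.0, 11573 and 11335 normalized counts in WT and 9459, 11449.7 and 9070.4 in Nipbl+/- libraries. Replicate 2 sat inside the WT range and the other 2 well below it, with a log2 fold change of -0.20 (SE 0.0564, edgeR adjusted *P* = 0.0392). The call was lost without WT replicate 1 or Nipbl+/- replicate 1 or 3 (edgeR adjusted *P* of up to 0.259). *Synpr*, its relative synaptoporin, changed by -0.26 (SE 0.0684, edgeR adjusted *P* = 0.0240). That call too was lost without Nipbl+/- replicate 1 or 3 (edgeR adjusted *P* of up to 0.166). The vesicular glutamate transporters *Slc17a6* and *Slc17a7*, which load glutamate into vesicles, changed by -0.12 (edgeR adjusted *P* = 0.120) and -0.19 (edgeR adjusted *P* = 0.127) and were not called. Neither were the synaptogyrins *Syngr1* and *Syngr3*, at -0.12 and -0.10 on the log2 scale.

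Synapsins tether vesicles into the reserve pool. *Syn3*, the synapsin of early neurons, measured 2326, 2428, 2259.9, 2377 and 2361 in WT, a range narrower than in any other group. Nipbl+/- libraries had 1519, 2035 and 1966, all below WT, and a log2 fold change of -0.36 (SE 0.0681, edgeR adjusted *P* = 0.00290). WaplΔ/+ libraries ran over 1203, 1785 and 2307 and double heterozygotes over 1342, 2002 and 2311 (lowest, median, highest), and both groups had 1 library in the WT range. *Syn3* was called in WaplΔ/+ brains at -0.40 (SE 0.0964, edgeR adjusted *P* = 0.0574), though not without WT replicate 1, 2, 4 or 5 (edgeR adjusted *P* of up to 0.172). It was not called in double heterozygotes, at -0.24 (edgeR adjusted *P* = 0.206). The span of *Syn3* overlaps *Timp3* and *Fbxo7*, with WT means of 2284 and 2784.5 against 2350.5 for *Syn3*. The strand setting of the read counting is not given in the sources used here, so reads of these genes may not be fully separated. *Syn2*, a synapsin of mature terminals, fell in Nipbl+/- brains, with a log2 fold change of -0.27 (SE 0.0583, edgeR adjusted *P* = 0.00761). Its change in double heterozygotes was -0.17 (SE 0.0485, edgeR adjusted *P* = 0.0845), a call lost without WT replicate 1, 3, 4 or 5 or double-heterozygote replicate 1, 4 or 6 (edgeR adjusted *P* of up to 0.206). *Syn1* was not called in any group. Its values were 6232, 5785, 6532, 6258 and 6111 in WT and 5184, 6347 and 5408 in Nipbl+/- libraries, with Nipbl+/- replicate 2 inside the WT range and a log2 fold change of -0.14 (edgeR adjusted *P* = 0.159).

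RAB3 proteins and the active zone scaffold bring vesicles to the release site. Of 14 genes in this group, *Rab3c*, *Rims1*, *Rims3*, *Unc13c*, *Pclo* and *Erc2* fell in Nipbl+/- brains and none was called in the other mutants. *Rims1* (chromosome 1, 22285972 to 22806158), the RIM scaffold that recruits calcium channels and UNC13, had 3202, 3157, 3049, 3165 and 3195 in WT and 2319, 2984 and 2699.9 in Nipbl+/- libraries. The groups did not overlap, although replicate 2 lay only just below the lowest WT library. The log2 fold change was -0.25 (SE 0.0575, edgeR adjusted *P* = 0.0120). All WaplΔ/+ libraries also lay below WT, at 2363, 2908 and 3036 (lowest, median, highest), but the gene was not called there (-0.17, edgeR adjusted *P* = 0.106). *Unc13c*, the UNC13 priming factor of cerebellar granule cells, measured 464, 443, 434, 433 and 465 in WT and 309, 401 and 348 in Nipbl+/- libraries, with no overlap and a log2 fold change of -0.35 (SE 0.0765, edgeR adjusted *P* = 0.00799). *Unc13a*, the priming factor that most forebrain synapses need, measured 11546, 11169.9, 11516, 11424 and 11078 in WT and 10554, 11829.7 and 11295 in Nipbl+/- libraries, which fell on both sides of the WT range (log2 fold change -0.02, edgeR adjusted *P* = 0.841). *Unc13b* had the highest fold change of the 55 genes, 0.09 (SE 0.0428, edgeR adjusted *P* = 0.255), and was not called. *Unc13a* and *Unc13b* overlap *Colgalt1* and *Fam214b*, with WT means of 3526 and 2364 normalized counts, and *Syn1* overlaps *Araf*, with a WT mean of 4987, so that the same limit applies to them.

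Of the active zone giants, *Pclo* (piccolo) fell by 0.24 (log2 units, edgeR adjusted *P* = 0.0157) and *Bsn* (bassoon) changed by 0.06 (edgeR adjusted *P* = 0.499). *Erc2*, the scaffold that binds RIM and bassoon, fell by 0.23 (edgeR adjusted *P* = 0.00394) with no overlap between the groups. *Erc2* lies 6.19 Mb from *Wapl* on chromosome 14, and its log2 fold change in WaplΔ/+ brains was -0.16 (edgeR adjusted *P* = 0.102). *Rab3c* and *Rims3* changed by -0.15 (edgeR adjusted *P* = 0.0783) and -0.13 (edgeR adjusted *P* = 0.0618). The *Rab3c* call was lost without WT replicate 1, 2 or 5 or Nipbl+/- replicate 1 (edgeR adjusted *P* of up to 0.270). The *Rims3* call was lost without WT replicate 1, 4 or 5 or Nipbl+/- replicate 1 or 3 (edgeR adjusted *P* of up to 0.367). *Rab3a*, *Rab3b*, *Rims2*, *Rims4* and *Rimbp2* were not called, at log2 fold changes between -0.18 and -0.02.

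Complexins clamp and then release the SNARE complex, and DOC2 proteins and rabphilin are further calcium-binding regulators. *Cplx2*, a main complexin of the forebrain, had 8504, 8578, 8725, 9105 and 8449 normalized counts in WT, 7236, 7722 and 6963 in Nipbl+/- libraries and 6751, 7183 and 7921 (lowest, median, highest) in double heterozygotes. Neither mutant group reached the WT range. The log2 fold changes were -0.25 (SE 0.0411, edgeR adjusted *P* = 0.000960) in Nipbl+/- brains and -0.25 (SE 0.0434, edgeR adjusted *P* = 0.00444) in double heterozygotes. In WaplΔ/+ brains the values of 7650.4, 8498 and 9056 overlapped WT, with a log2 fold change of -0.03 (edgeR adjusted *P* = 0.722). Double heterozygotes differed directly from WaplΔ/+ brains by -0.22 (SE 0.0439, edgeR adjusted *P* = 0.0230), and no other of the 55 genes was called in that comparison, where 0.812% of all tested genes fell. That call was lost within the low and the high *mt-Nd3* sets, at -0.23 and -0.17 (edgeR adjusted *P* = 0.270 and 0.621). Nipbl+/- brains differed from WaplΔ/+ brains by -0.21 (SE 0.0508, edgeR adjusted *P* = 0.0807). *Cplx2* and *Syt4* were the only 2 of the 55 genes called there, where 0.887% of all tested genes fell. The *Cplx2* call was lost without WaplΔ/+ replicate 3, 4, 6 or 7 or Nipbl+/- replicate 1 or 3 (edgeR adjusted *P* of up to 0.532). It was also lost with the *mt-Nd3* set as a term and within the low set (edgeR adjusted *P* of up to 0.952).

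*Doc2b*, a high-affinity calcium sensor of spontaneous and asynchronous release, measured 1858, 1864, 1939, 1918 and 1775 in WT and 1553, 1714 and 1441 in Nipbl+/- libraries. The groups did not overlap, and the log2 fold change was -0.26 (SE 0.0516, edgeR adjusted *P* = 0.00424). Double heterozygotes ran over 1383, 1479 and 1787 (lowest, median, highest) and gave -0.29 (SE 0.0569, edgeR adjusted *P* = 0.0109), with 1 library, replicate 3, just inside the WT range. *Cplx1* changed by -0.20 (SE 0.0555, edgeR adjusted *P* = 0.0343) in Nipbl+/- brains, a call lost without Nipbl+/- replicate 1 or 3 (edgeR adjusted *P* of up to 0.220). It changed by -0.16 (SE 0.0455, edgeR adjusted *P* = 0.0867) in double heterozygotes, a call lost without WT replicate 1, 3, 4 or 5 or double-heterozygote replicate 1, 4 or 6 (edgeR adjusted *P* of up to 0.211). *Cplx3*, the complexin of retinal and some cortical neurons, was barely expressed, with 10.8, 14.4, 16.7, 17.46 and 14.996 normalized counts in WT and 10.9, 3.89 and 3.18 in Nipbl+/- libraries. Its log2 fold change of -1.28 (SE 0.375, edgeR adjusted *P* = 0.0424) rests on few counts, and without Nipbl+/- replicate 2 or 3 the edgeR adjusted *P* was 0.122 or 0.176. *Doc2a* and *Rph3a* were not called, at -0.13 (edgeR adjusted *P* = 0.120) and -0.12 (edgeR adjusted *P* = 0.189).

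Endocytic genes recover vesicle membrane after fusion. In Nipbl+/- brains *Snap91*, *Synj1*, *Amph* and *Dnm3* fell and *Dnm1* was not called. *Dnm3* (chromosome 1, 161982450 to 162478321), a dynamin that pinches off vesicles, had 5833, 5593, 5251, 5220.3 and 5363 in WT and 3685, 4745 and 4648 in Nipbl+/- libraries. All 3 lay below WT, with a log2 fold change of -0.33 (SE 0.0638, edgeR adjusted *P* = 0.00346). In WaplΔ/+ brains *Dnm3* ran over 3765, 4762 and 5377 (lowest, median, highest), overlapping WT, and was called at -0.23 (SE 0.0622, edgeR adjusted *P* = 0.0780). That call was lost without WT replicate 1, 2, 4 or 5 or WaplΔ/+ replicate 4 or 5 (edgeR adjusted *P* of up to 0.211). Double heterozygotes ran over 4238, 4868 and 5529.5 and were not called (-0.14, edgeR adjusted *P* = 0.270).

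*Dnm1*, the main dynamin of nerve terminals, measured 10214, 9754, 10437, 10515 and 10771 in WT and 10087, 11419.5 and 10030.4 in Nipbl+/- libraries. The ranges overlapped and the log2 fold change was 0.02 (edgeR adjusted *P* = 0.883). *Amph*, which brings dynamin to the neck of budding vesicles, measured 4206, 4266, 4248, 4373 and 4188 in WT and 3574, 3980.2 and 3506 in Nipbl+/- libraries, with no overlap and a log2 fold change of -0.21 (SE 0.0428, edgeR adjusted *P* = 0.00451). In double heterozygotes values ran over 3524, 3830.5 and 4084 (lowest, median, highest) and no library reached WT. *Amph* was called there at -0.15 (SE 0.0446, edgeR adjusted *P* = 0.0972), but not without WT replicate 1, 2, 3, 4 or 5 or double-heterozygote replicate 1, 4 or 6 (edgeR adjusted *P* of up to 0.247). *Synj1*, the phosphatase that strips the clathrin coat, and *Snap91*, a clathrin adaptor, changed by -0.17 (edgeR adjusted *P* = 0.0596) and -0.13 (edgeR adjusted *P* = 0.0986). The *Synj1* call was lost without WT replicate 1, 2, 4 or 5 or Nipbl+/- replicate 1 (edgeR adjusted *P* of up to 0.344). The *Snap91* call was lost without WT replicate 1, 2, 3, 4 or 5 or Nipbl+/- replicate 1 or 3 (edgeR adjusted *P* of up to 0.404).

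**Figure D2:**
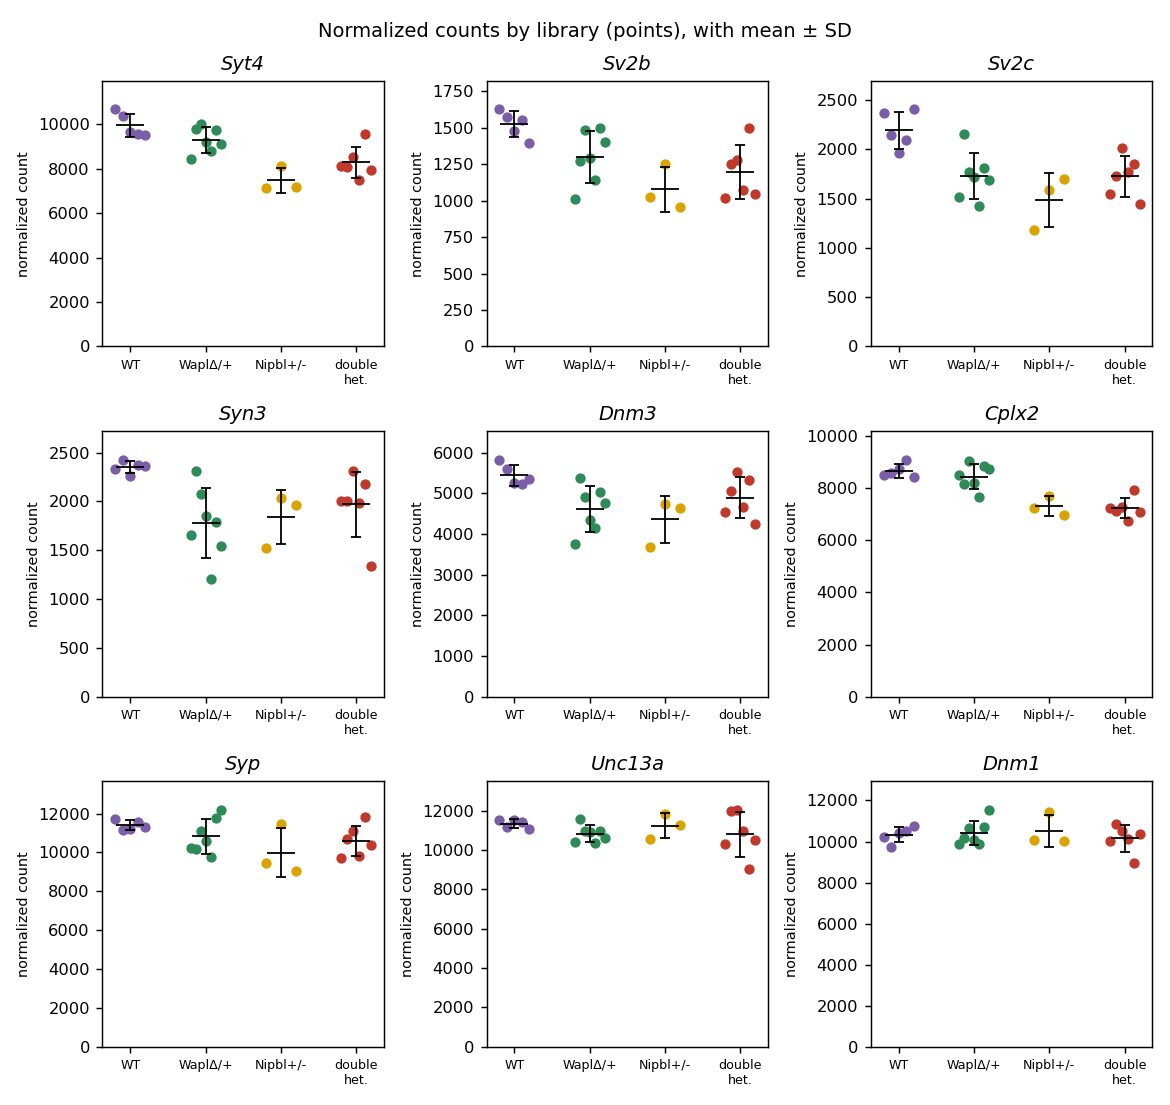
Normalized counts (vertical axes, from 0) of 9 genes in each library (points), by genotype, with the mean and SD (bars). *Syt4*, *Sv2b*, *Sv2c*, *Syn3*, *Dnm3* and *Cplx2* lie below WT in all 3 Nipbl+/- libraries, *Syp* in 2 of 3, and *Unc13a* and *Dnm1* overlap WT.

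Of the 27 genes called in Nipbl+/- brains, 14 stayed called when each of the 8 libraries was left out in turn. These were *Syt1*, *Syt4*, *Sv2b*, *Sv2c*, *Syn2*, *Syn3*, *Rims1*, *Unc13c*, *Pclo*, *Erc2*, *Cplx2*, *Doc2b*, *Amph* and *Dnm3*. The calls of 11 of them (all but *Syn3*, *Rims1* and *Pclo*) also held under every other alternative that was run. In double heterozygotes 5 of 12 calls held without each library, those of *Syt1*, *Syt4*, *Sv2c*, *Cplx2* and *Doc2b*. Under every other alternative 0 of 12 held. Those alternatives included the high *mt-Nd3* set, where no gene was called and which holds no Nipbl+/- library. That fit had only WT replicates 4 and 5 against double-heterozygote replicates 5 and 6. It was the only 1 of 11 alternatives in which the calls of *Syt4*, *Sv2b*, *Sv2c*, *Cplx2* and *Doc2b* were lost. The counts for the 2 mutant groups therefore rest on different alternatives.

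**Figure D3:**
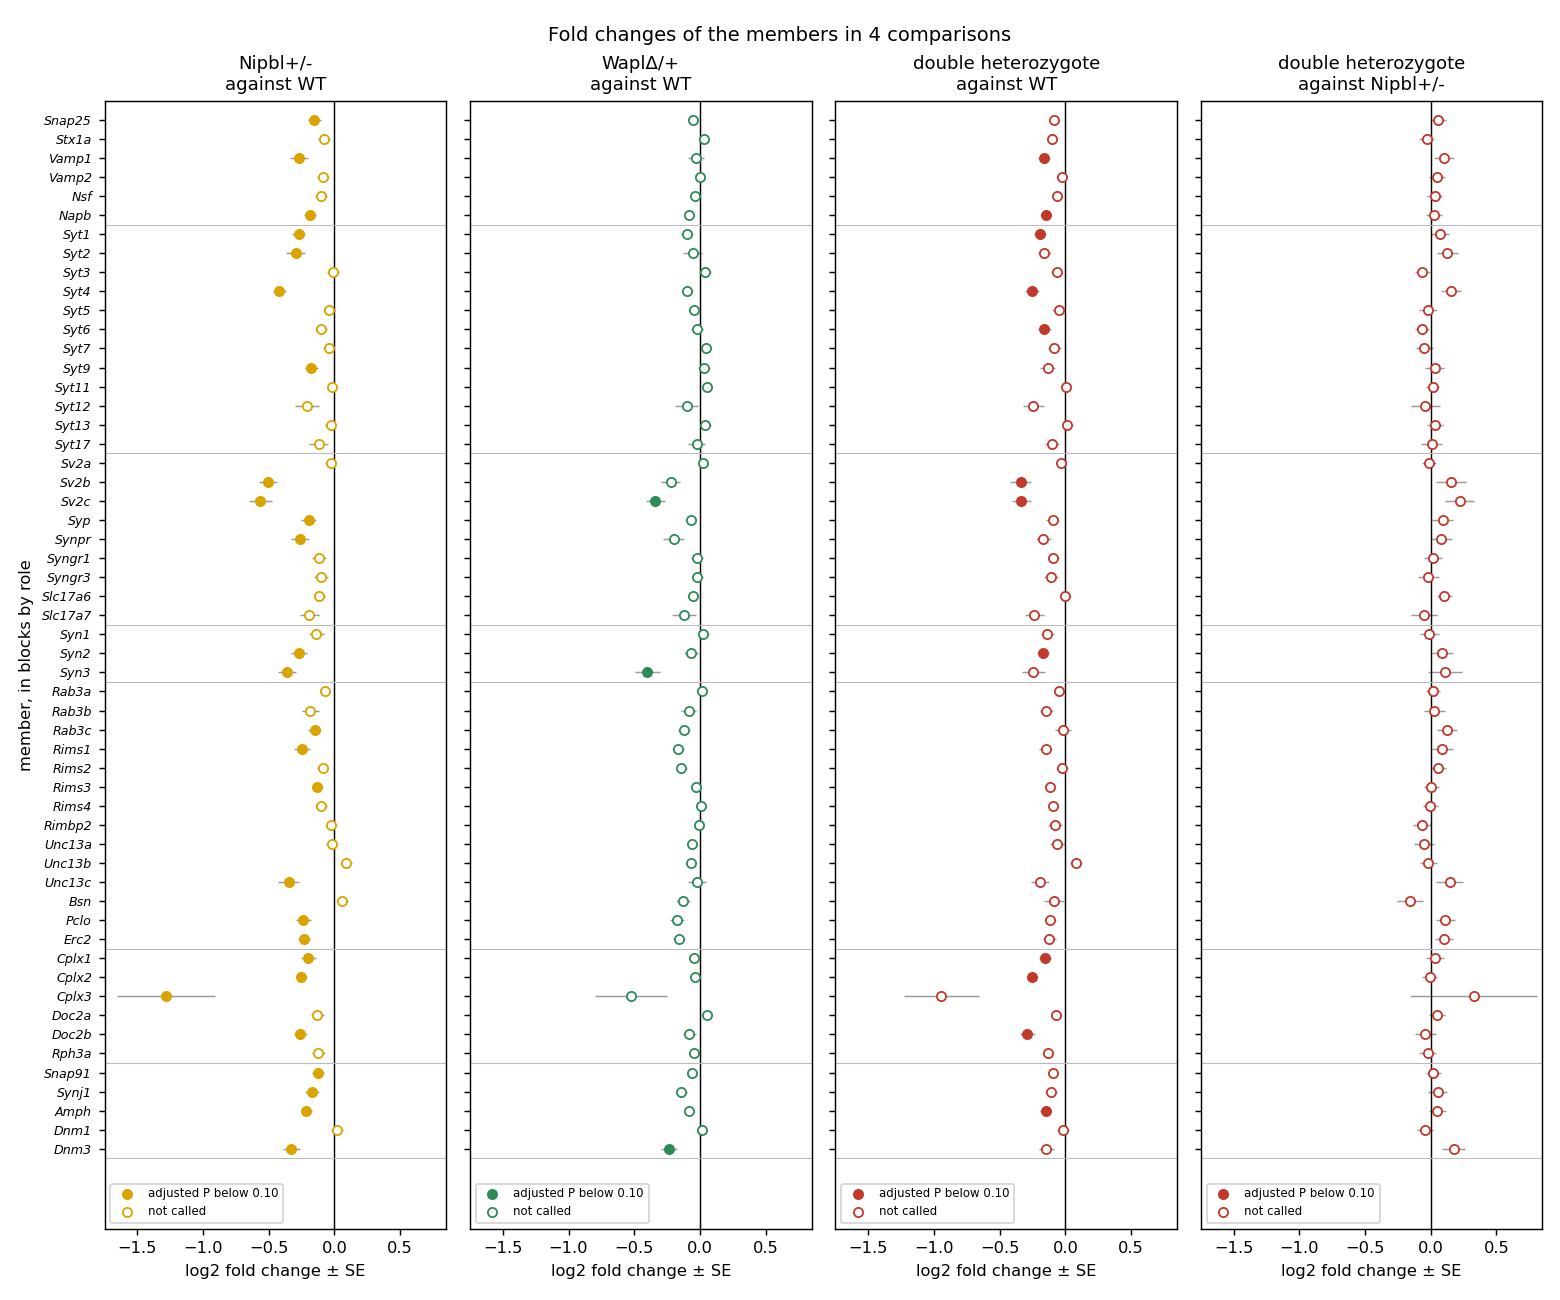
Log2 fold change (horizontal axis) with SE (bars) of each gene, in blocks by role, in 3 comparisons with WT and in double heterozygotes against Nipbl+/- brains. Filled points were called at an adjusted *P* below 0.10: 27 in the first panel, 3 in the second, 12 in the third and 0 in the last.

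Whether a reduced *Wapl* dose alters the effect of the Nipbl mutation was asked in 2 ways. Double heterozygotes compared directly with Nipbl+/- brains gave 0 called genes among the 55 by edgeR's quasi-likelihood test, 0 at an unadjusted *P* below 0.05 and 0 by DESeq2, while over all tested genes 2 (0.00655%) were called and 1259 (4.12%) had an unadjusted *P* below 0.05. The median log2 difference was 0.03 and took either sign when 1 library was left out, from -0.01 without Nipbl+/- replicate 1 or 3 to 0.09 without Nipbl+/- replicate 2. With all libraries, 36 of the 55 genes were higher in double heterozygotes and 19 lower, where 48.6% of all tested genes were lower. The largest difference after that of *Cplx3* was 0.22 (SE 0.109, edgeR adjusted *P* = 0.971) for *Sv2c*, followed by 0.17 (SE 0.0901, edgeR adjusted *P* = 0.971) for *Dnm3*. The absence of calls does not show that the 2 groups were alike: the SE of the *Sv2c* difference is as large as the change many of the 55 genes showed against WT.

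The interaction term asks whether the double heterozygote departs from the sum of the 2 single effects on the log2 scale. None of the 55 genes was called (0 of all tested genes), and 11 had an unadjusted *P* below 0.05 (13.8% of all tested genes). All 11 had values above 0, meaning that double heterozygotes had higher levels than the sum of the single effects gives. They were *Syt4*, *Sv2b*, *Sv2c*, *Syn3*, *Rab3c*, *Rims1*, *Rims2*, *Pclo*, *Erc2*, *Synj1* and *Dnm3*. Over all 55 genes, 35 had values above 0 and 20 below 0, where 53.9% of all tested genes and 63.5% of the abundant genes lay below 0. The lowest unadjusted *P* values were those of *Sv2c* at 0.53 (SE 0.139, edgeR adjusted *P* = 0.200) and *Dnm3* at 0.38 (SE 0.115, edgeR adjusted *P* = 0.200). DESeq2 called 6 genes in the same model, all higher (*Syt4*, *Sv2c*, *Rab3c*, *Pclo*, *Erc2* and *Dnm3*). The share of all tested genes that DESeq2 called in this model is not given here, so the 6 cannot be set against it. The edgeR count was 2 without WaplΔ/+ replicate 2 (*Sv2c* and *Dnm3*) and 3 without double-heterozygote replicate 6 (*Sv2c*, *Syn3* and *Dnm3*).

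The spread between embryos was wider in the mutant groups than in WT. The median coefficient of variation over the 55 genes was 3.42% in WT, 8.30% in Nipbl+/-, 6.70% in WaplΔ/+ and 6.91% in double-heterozygote brains. The same measure over all tested genes is not given here. The authors describe a wider spread between samples for the mutant transcriptomes as a whole. The median log2 ratio of the 55 genes to the WT mean stayed between -0.03 and 0.02 in the WT libraries. It was -0.20, -0.02 and -0.21 in Nipbl+/- replicates 1 to 3, so that replicate 2 lay in the WT range. Among WaplΔ/+ libraries it ran from -0.18 in replicate 5 to 0.04 in replicate 7, with replicates 1 and 4 at -0.14 and -0.09. Among double heterozygotes it ran from -0.19 in replicate 1 to -0.05 in replicate 3. Counted another way, 46, 19 and 48 of the 55 genes lay below all WT libraries in Nipbl+/- replicates 1 to 3, where 30.5%, 24.1% and 30.4% of the abundant genes did. The corresponding number ran from 13 to 47 among WaplΔ/+ libraries, where 13.9% to 32.1% of the abundant genes did, and from 24 to 49 among double heterozygotes, where 27.3% to 40.5% did. WaplΔ/+ replicate 7, with 18 of the 55 genes, lay near its share of 31.4% of abundant genes. The 55 genes together took between 0.813% and 0.831% of all counts in WT, 0.722% to 0.814% in Nipbl+/-, 0.740% to 0.839% in WaplΔ/+ and 0.744% to 0.812% in double-heterozygote libraries.

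Lists of cell type markers were read in the same libraries. Of 15 pan-neuronal markers the neurofilament genes *Nefl* and *Nefm* fell in Nipbl+/- brains, by 0.27 and 0.29 log2 units (edgeR adjusted *P* = 0.000206 and 0.000148). *Ina*, another neuronal filament gene, rose by 0.24 (SE 0.0424, edgeR adjusted *P* = 0.00164), and the library medians of the list stayed between -0.06 and 0.05 in all 21 libraries. Among 14 progenitor markers *Sox2*, *Nes*, *Eomes* and *Neurog2* rose and *Fabp7* and *Slc1a3* fell. All 6 astrocyte markers had fold changes below 0 and 5 were called, with *Aqp4*, the water channel of astrocyte endfeet, at -0.79 (SE 0.157, edgeR adjusted *P* = 0.00415). Of 7 oligodendrocyte lineage markers 4 fell, with *Pdgfra* at -0.60 (SE 0.0628, edgeR adjusted *P* = 3.94e-05), and of 7 microglia and macrophage markers 5 fell. Markers of excitatory neurons (0 of 5), choroid plexus (0 of 4) and pituitary (0 of 5) were not called. The excitatory list includes *Slc17a6* and *Slc17a7*, which are also among the 55 genes. Of the inhibitory neuron markers 2 of 5 rose (*Dlx1* and *Dlx2*), of the blood markers 1 of 6 rose (*Hbb-y*), of the endothelial markers 1 of 5 rose (*Cdh5*) and 1 fell (*Slco1c1*), and of the meningeal markers 1 of 5 fell (*Slc6a13*). In WaplΔ/+ brains no neuronal, progenitor or glial marker was called, while 1 endothelial and 2 meningeal markers rose and 1 pituitary marker fell. Pituitary markers summed to between 31.0 and 2778 normalized counts in the WT libraries. Their library median was 2.03 in WT replicate 2 and between -2.72 and -1.90 in the other WT libraries. In double heterozygotes 2 pan-neuronal markers rose, 1 progenitor marker rose and 1 fell, and 2 astrocyte, 5 oligodendrocyte lineage and 1 microglia marker fell, with none called in the remaining lists.

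The 7 libraries with the lowest medians over the 55 genes were Nipbl+/- replicates 1 and 3, WaplΔ/+ replicates 1 and 5 and double-heterozygote replicates 1, 4 and 6. Their progenitor medians, in this order, were 0.30, 0.15, 0.22, 0.31, 0.18, 0.26 and 0.22, where WT libraries ranged from -0.09 to 0.03. Their astrocyte medians were -0.71, -0.51, -0.40, -0.73, -0.33, -0.39 and -0.35, where WT libraries ranged from -0.07 to 0.10. Nipbl+/- replicate 2 had a progenitor median of -0.08 and an astrocyte median of -0.17. The 2 measures did not always go together, since WaplΔ/+ replicate 2 had an astrocyte median of -0.38 with a median over the 55 genes of -0.04, and double-heterozygote replicate 2 had -0.25 with -0.07. Summed over the list, progenitor markers ran from 44351 to 46166 normalized counts in WT and from 40624 to 47043 in Nipbl+/- libraries. Astrocyte markers ran from 11221 to 12449.7 in WT and from 8056 to 10723 in Nipbl+/- libraries. No marker of these 2 lists was at 0 in any group. The part that cell composition or developmental stage plays in the levels of the 55 genes was not tested.

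**Figure D4:**
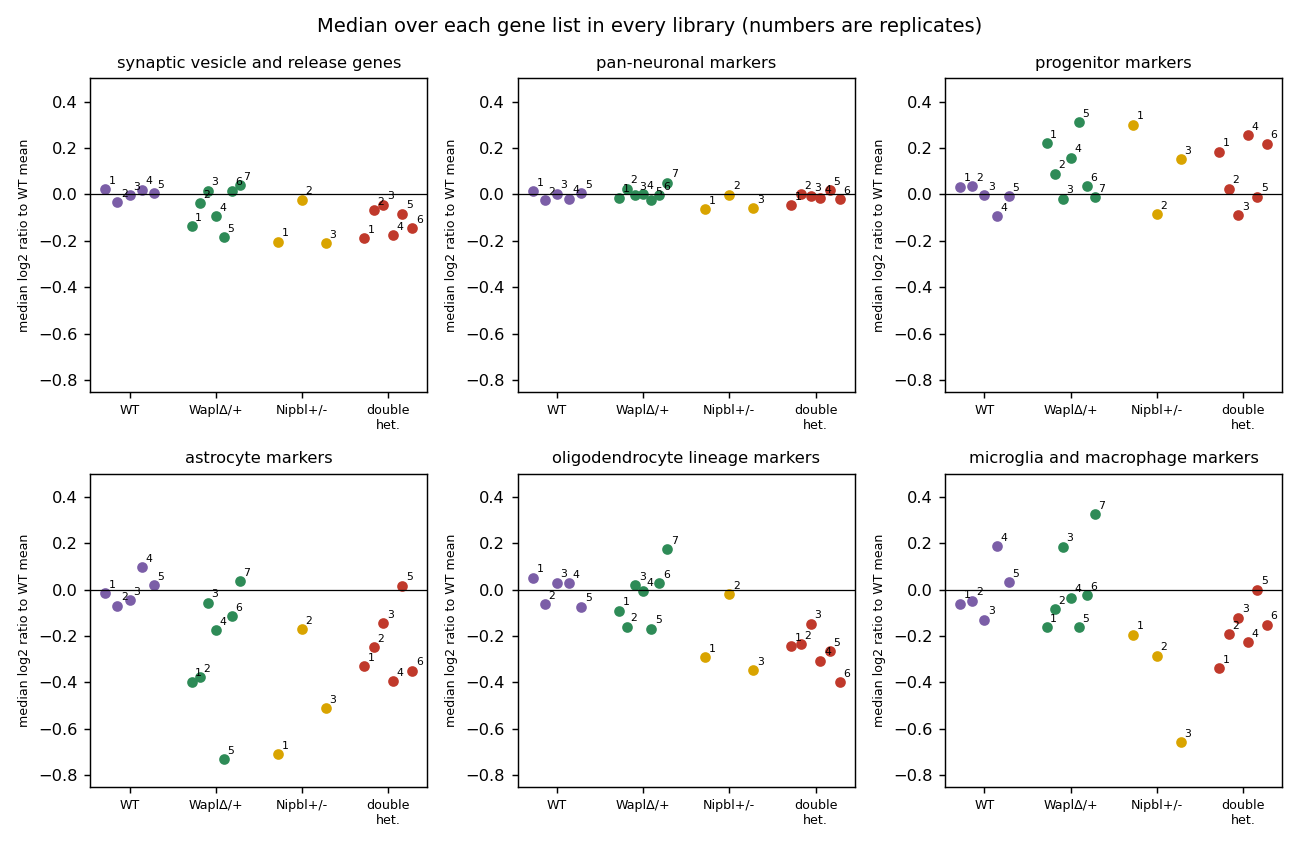
Median log2 ratio to the WT mean (vertical axis) of the 55 genes and of 5 marker lists in every library, by genotype, with replicate numbers beside the points. Nipbl+/- replicates 1 and 3 are low for the 55 genes and for astrocyte markers and high for progenitor markers, and pan-neuronal markers lie near 0 in all libraries.

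A further 79 genes of release and endocytosis outside the 55 (80 were listed and 79 were in the table) were read from the same fits. In Nipbl+/- brains 21 fell and 2 rose, where 6.96% of all tested genes (14.0% of the abundant genes) fell and 4.25% rose. Their median log2 fold change was -0.07. The largest called reductions were in *Stxbp5l*, a tomosyn that holds syntaxin back from fusion, at -0.57 (SE 0.191, edgeR adjusted *P* = 0.0786), *Slc18a3*, the vesicular acetylcholine transporter, at -0.42 (SE 0.110, edgeR adjusted *P* = 0.0240), and *Cadps2*, a priming factor of dense-core vesicles, at -0.40 (SE 0.0571, edgeR adjusted *P* = 0.000330). The 2 increases were in *Doc2g*, at 0.23 (SE 0.0571, edgeR adjusted *P* = 0.0157), and *Tspoap1*, which encodes a RIM-binding protein, at 0.18 (SE 0.0421, edgeR adjusted *P* = 0.0128). In WaplΔ/+ brains 3 of the 79 fell, where 1.45% of all tested genes fell (3.03% of the abundant genes). They were *Itsn1*, *Itsn2* and *Ston2*, which encode endocytic adaptors. In double heterozygotes 5 fell (*Stxbp6*, *Cadps2*, *Ppfia2*, *Ppfia4* and *Apba1*), where 2.46% of all tested genes fell (4.59% of the abundant genes). No gene of this list rose in either group.

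The calls were also read by gene length. Of the 20 genes spanning more than 100 kb of genome, 16 (80.0%) fell in Nipbl+/- brains, and of the 35 shorter genes 11 (31.4%) fell. The median log2 fold changes were -0.24 and -0.12. Among all abundant genes with a known span, 38.6% of 1198 long genes and 9.06% of 5707 shorter genes fell, with medians of -0.09 and 0.02. In WaplΔ/+ brains the 3 genes called were all long (3 of 20 against 0 of 35), with 11% and 1.44% of long and shorter abundant genes lower. In double heterozygotes 5 of 20 long and 7 of 35 shorter genes fell, against 14.9% and 2.49% of the abundant genes. The longest of the 55, *Erc2* (856263 bases), was called in Nipbl+/- brains, and so were *Syt4* and *Vamp1*, which span 9608 and 6726 bases. Whether length, or a property that goes with it, has a part in the reductions was not tested.

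**Figure D5:**
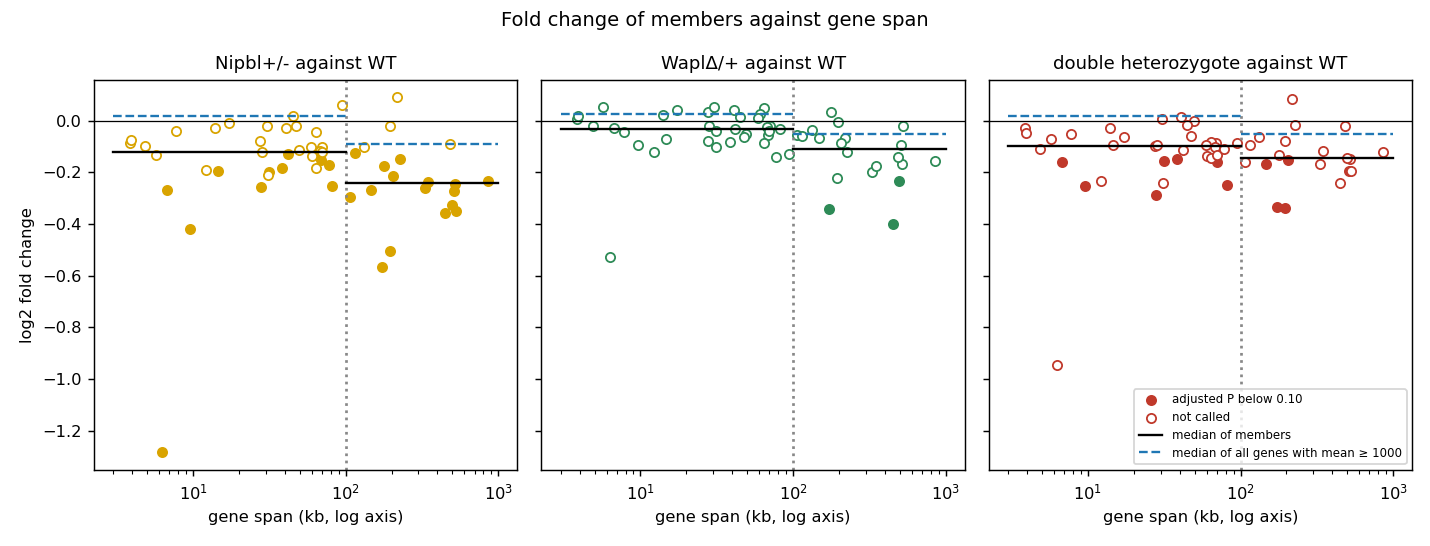
Log2 fold change against WT (vertical axis) of the 55 genes by gene span (horizontal axis, kb, log scale) in the 3 mutant groups, with called genes filled and a dotted line at 100 kb. Lines give the median of the 55 genes (solid) and of all abundant genes (dashed) on each side. The medians of the 55 genes lie below the dashed lines on both sides in all 3 groups.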

How the data were processed

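Poly(A) RNA from 21 whole brains of female E17.5 embryos was sequenced, 1 library per embryo, in 4 genotype groups assigned from the sample labels. The authors trimmed reads with cutadapt 2.4, aligned them to mm10 with STAR 2.5.3a and counted them per gene with featureCounts of Subread 1.6.4, and the raw counts are the deposited values. The annotation release and strand setting are not given in the sources used here. A further Nipbl+/- library left out by the authors was not analysed here. The 55 genes and all lists were chosen with earlier results of these data known.

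The analysis of the counts used edgeR 4.0.16 under R 4.3.3. Genes with at least 10 normalized counts over all libraries were kept, TMM factors were computed for the libraries of each fit, and quasi-likelihood tests were adjusted by the Benjamini-Hochberg method over all genes kept, with a threshold of 0.10. Each comparison of 2 groups used the libraries of those groups, and the interaction term used all 21. The SE of a log2 fold change is its size divided by the square root of the F statistic. Library medians used log2 ratios with 0.5 counts added. The tests were checked on simulated counts, and alternatives included DESeq2 1.42.0. Values in every WT and Nipbl+/- library, and for some genes the range in the other groups, are given for the 2 genes with the largest called change in each role group (1 synapsin), the gene with the highest count in each, and the genes called in WaplΔ/+ brains. Other genes named were chosen after their values were seen. Gene positions and spans come from RefSeq for GRCm38.p6.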

Additional observations from a re-analysis of the deposited data

Results flagged for a closer look

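Among the 63 groups of 4 to 10 libraries examined (20 named genes and the median of the 55 genes, in 3 groups each), 4 held a library set apart from the rest by Dixon's criterion, which chance alone meets in about 1 in 20 groups. *Vamp1* in double-heterozygote replicate 1 had 791 normalized counts, with the next value at 874. *Napb* in WT replicate 1 had 4796, with the next at 4513. *Syn3* in double-heterozygote replicate 6 had 1342, with the next at 1983. *Cplx3* in WaplΔ/+ replicate 3 had 20.1, with the next at 12.2.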

How the results depend on the processing

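No called gene changed direction under any alternative. The counts below are given without the share of all tested genes called in the same fit. They do not show whether a move was particular to the 55 genes. The 27 genes called in Nipbl+/- brains against WT became 11 with all 4 groups in 1 fit, 16 in the low *mt-Nd3* set and between 17 and 42 with 1 library left out. For WaplΔ/+ against WT, where 3 were called, the count was 1 at an adjusted threshold of 0.05, 9 with DESeq2, 6 with upper-quartile factors, 9 with no filter beyond 1 count, 6 with a filter of 1 CPM in 3 libraries, 0 with all groups in 1 fit, 1 in the high *mt-Nd3* set and between 0 and 9 with 1 library left out. For double heterozygotes against WT, where 12 were called, it was 6 at 0.05, 21 with DESeq2, 5 with all groups in 1 fit, 6 and 0 in the low and high *mt-Nd3* sets and between 5 and 30 with 1 library left out. Double heterozygotes against WaplΔ/+ (1 called) gave 5 with DESeq2, 3 with all groups in 1 fit, 0 in either *mt-Nd3* set and between 1 and 4 with 1 library left out. Nipbl+/- against WaplΔ/+ (2 called) gave 1 at 0.05, 4 with DESeq2, 1 with upper-quartile factors, 0 with the *mt-Nd3* set as a term, 0 in the low set and between 0 and 7 with 1 library left out. The interaction (0 called) gave 6 with DESeq2 and between 0 and 3 with 1 library left out. Fits within an *mt-Nd3* set use fewer libraries, and the other causes were not tested. Replicate numbers showed no pairing of the embryos. Deviations of same-numbered libraries correlated between -0.379 and 0.618 over 25 pairs of libraries (median 0.0038). For differently numbered libraries the range was -0.71 to 0.605 over 136 pairs (median 0.0089). A replicate block gave 18 genes for Nipbl+/- and 15 for WaplΔ/+ against WT, 6 for double heterozygotes against WT, 1 for Nipbl+/- against WaplΔ/+, and 2 for double heterozygotes against Nipbl+/- (*Sv2c* and *Dnm3*, both higher). Of the 45 gene calls, 44 held with DESeq2, 31 with the *mt-Nd3* set as a term, 29 with the block, 22 in the low set and 19 with all groups in 1 fit, and of 16 that could be fitted in the high set 1 held. With 3 Nipbl+/- embryos, 1 of them near WT for most of the 55 genes, small changes depend on which embryos are included. Over all but low-count genes it was Nipbl+/- replicate 3 that stood apart. Its chi-square per degree of freedom was 22.35 against replicate 1 and 23.92 against replicate 2. Replicates 1 and 2 gave 7.411 against each other.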
